A study of Oryza sativa with 80 samples.

Results

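The 200 most stable genes of the rice leaf blade are the genes whose share of the library varied least over all 80 libraries of a heat and drought experiment. They were chosen from the measured values themselves. Raw counts were divided by the library total and expressed as CPM, that is counts per 1e+06 counts of the library, genes with at least 20 CPM in every library were kept as eligible, and the eligible genes were ranked by the standard deviation (SD) of log2 CPM. The table held 42189 genes, 3544 of them were eligible, and the 200 with the lowest SD are 5.64% of the eligible genes. Because every library took part in the choice, low spread in these genes is the rule and not a finding, and the tests printed for them are descriptions.

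Poly(A) RNA was sequenced from mature blades of the third leaf of rice (Oryza sativa) seedlings. D40 leaves grew in soil with 1.5 g water per g dry soil, a drought that limits growth, and were held at 40 °C for 30 min before collection at 12 days. W40 leaves grew with 3 g/g, received the same heat shock and were collected at 10 days. D30 leaves had the drought and W30 leaves the full water supply, both at 30 °C and at the same ages as their heated counterparts. Each treatment had 4 replicates, each a pool of matched pieces of 3 leaves, and each pool gave 5 libraries, from blade segment 2 nearest the base to segment 6 nearest the tip. The 16 pools are therefore the units of replication, and soil water cannot be told apart from the 2-day difference in age. The labels also name 2 batches, of which batch 2 held 9 pools and batch 1 held 7, with 1 of the W40 pools in batch 1.

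A gene that keeps its level is used as a yardstick. In quantitative PCR the signal of a gene of interest is divided by that of reference genes assumed to be constant, usually drawn from the actin, tubulin, ubiquitin, elongation factor and glyceraldehyde-3-phosphate dehydrogenase families. Sequencing has no such yardstick of its own, since every level is a share of the library. When heat shock fills a library with chaperone transcripts, the share left to other genes falls even where their number of molecules per cell does not change. Scaling methods such as TMM (trimmed mean of M-values) move each library so that the bulk of its genes stays level, whereas dividing by the library total keeps the shares. The stability rule and all CPM values below use library totals. Log2 changes are with TMM unless library totals are named, and counts of genes that passed over both batches are given with both. In bulk tissue, fewer cells of a type and less RNA per cell cannot be told apart.

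Total counts per library lay between 60300951 and 128636996 in batch 2, against 53398019 and 76741242 in batch 1. The 6 loci entered by hand as leaf photosynthesis markers had medians of 2931 to 17705 CPM over the 80 libraries, and the locus entered as a meristem marker had 0 counts in all of them. Over the eligible genes the first principal component of log2 CPM held 46.6% of the variance, and batch and temperature, taken singly, accounted for 52.5% and 51.0% of its spread. Libraries of the same group differed by more than sampling noise, with a lowest chi-square per degree of freedom of 10.1 over 120 pairs. Gene names and roles were not used, since 0 of the locus IDs matched an entry of the RefSeq table supplied. Reads from overlapping genes on opposite strands cannot be separated here, because no source used states that counting used the strand.

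The SD of log2 CPM over 80 libraries ran from 0.0911 to 0.186 among the 200 genes, with a median of 0.169. Among the 3344 other eligible genes it had a median of 0.384 and reached 3.33. The threshold falls in a continuous ranking. LOC_Os03g59740, LOC_Os05g08600 and LOC_Os02g30180 stood just inside it with SDs of 0.1855, 0.1856 and 0.1858, and LOC_Os08g32100, LOC_Os08g08190 and LOC_Os06g06880 stood just outside with 0.1861, 0.1862 and 0.1863. Membership near rank 200 therefore rests on differences in the fourth decimal, whereas the first ranks are set apart, with an SD of 0.103 at rank 2 and 0.128 at rank 10.

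**Figure D1:**
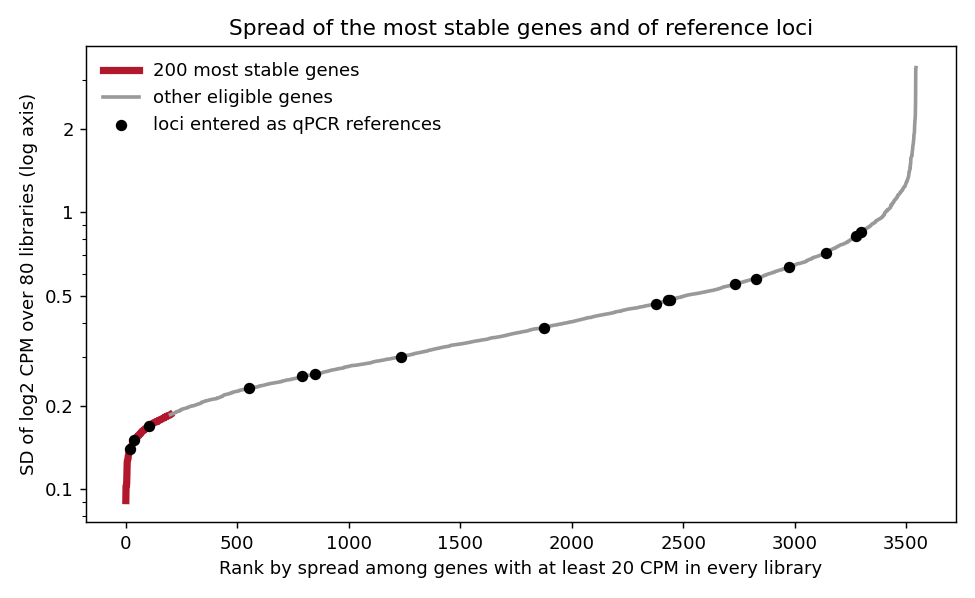
SD of log2 CPM over 80 libraries (vertical, log axis) against the rank by SD of the 3544 eligible genes (horizontal), with the 200 most stable genes as a red line, the other eligible genes as a grey line and 17 loci entered as qPCR references as black points. The red line ends at 0.186, and 3 of the black points lie on it.

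LOC_Os02g39890 had the lowest spread of any eligible gene. Its CPM over the 5 summed segments was 48.1, 52.5, 45.8 and 44.9 in the D40 pools, 46.3, 46.5, 45.5 and 45.7 in the W40 pools, 44.3, 45.3, 43.1 and 46.3 in the D30 pools, and 41.6, 45.5, 44.3 and 44.4 in the W30 pools. The 4 treatments overlap, and the pool with the highest level lies in D40 and the lowest in W30. Over single libraries its highest CPM was 1.35 times its lowest, the smallest ratio of the 200. Along the blade it averaged 45.8 ± 2.47, 44.5 ± 2.60, 44.7 ± 3.19, 46.5 ± 2.37 and 46.8 ± 3.45 CPM in segments 2 to 6 (SD, n = 16 libraries each), so the segments overlap as well.

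LOC_Os01g71770, the second in rank, ran from 48.7 to 67.2 CPM with a median of 56.4, and its pools averaged 56.0 ± 2.32 in D40, 53.4 ± 1.11 in W40, 59.9 ± 3.27 in D30 and 57.9 ± 2.79 CPM in W30 (SD, n = 4 each). LOC_Os03g55600 averaged 49.2 ± 1.05, 46.3 ± 0.614, 48.4 ± 2.00 and 49.4 ± 2.69 CPM in the same order of treatments. Both genes kept their treatment means within a few CPM of each other. The first 10 genes had medians from 25.0 CPM for LOC_Os08g33076 to 134.1 CPM for LOC_Os02g54990, and the others among them were LOC_Os03g64360, LOC_Os07g25710, LOC_Os02g57640, LOC_Os07g01060 and LOC_Os01g48190.

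**Figure D2:**
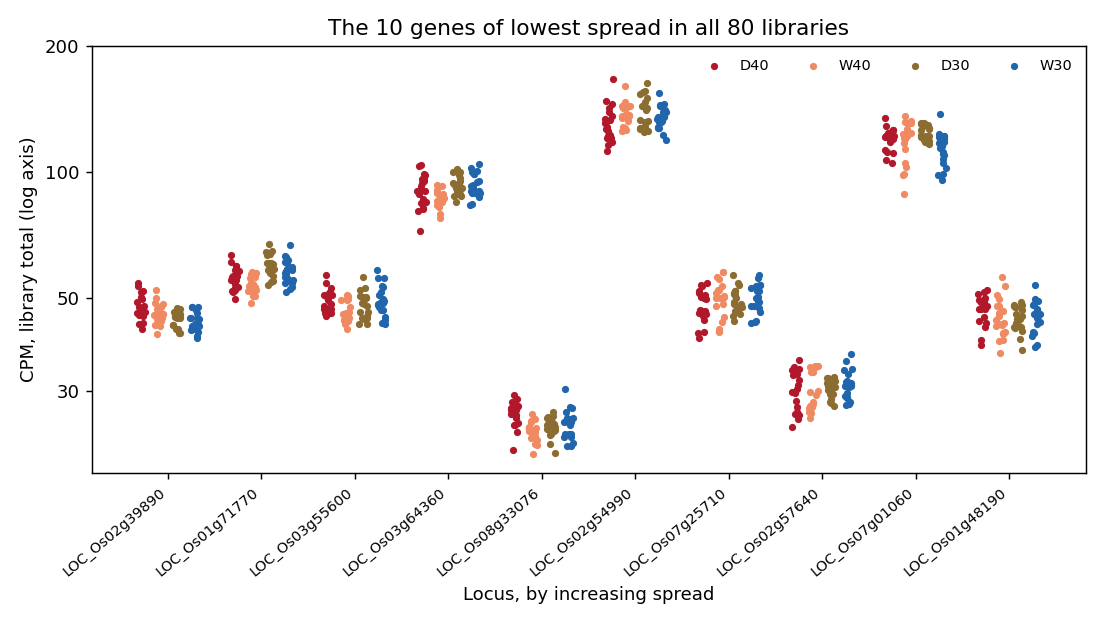
CPM by library total (vertical, log axis) in all 80 libraries for the 10 genes with the lowest SD (horizontal, by increasing spread). Each point is a library, coloured by treatment in the order D40, W40, D30 and W30, and for LOC_Os02g39890 the 80 points lie between 40.3 and 54.3 CPM.

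Most of the 200 genes were expressed at a moderate level. Their median CPM had a median of 45.7, against 71.0 for the other eligible genes. The rule bears on this, since a more variable gene needs a higher median to keep 20 CPM in every library. The lowest CPM of a gene had a median of 35.5 in the 200 genes and 36.2 in the others. The median CPM was below 50 CPM in 115 of the 200 genes and at least 100 CPM in 16. The highest were LOC_Os09g36040 at 826.5 CPM, LOC_Os01g53020 at 630.2, LOC_Os09g39390 at 457.5, LOC_Os01g67000 at 254.2 and LOC_Os03g50290 at 205.5. LOC_Os01g53600, LOC_Os08g33076 and LOC_Os01g08830 were the lowest, at 24.5, 25.0 and 25.5 CPM. None of these levels brings the counts near 0, as the smallest count of any of the 200 genes in any library was 1202. Counting error alone gave a median SD of 0.0241 on the log2 scale, or 0.0341 if each read pair was counted as 2 reads, against the observed median of 0.169. The spread that is left in these genes is thus several times what counting gives, and within groups of the same treatment and segment the SD had a median of 0.150.

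Per unit length the 200 genes were also lower than the rest. The FPKM values deposited by the authors, which are per length and batch-corrected, had a median of 10.9 in the 200 genes against 18.9 in the other eligible genes. The floor of 20 CPM in every library bears on this difference too. The gene length implied by these FPKM values had a median of 4587 bases in the 200 genes and 3990 bases in the others. The interquartile ranges overlap, with 3582 to 6316 bases in the 200 genes and 2599 to 5943 bases in the others. By their locus IDs, 39 of the 200 lie on chromosome 1, which is 19.5% against 14.2% of the other eligible genes, and 4 lie on chromosome 12, which is 2.0% against 4.87%. Neighbouring loci were rare among them. Only LOC_Os03g58060 with LOC_Os03g58070, and LOC_Os08g12750 with LOC_Os08g12760, form pairs whose numbers differ by at most 20.

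A low SD still leaves room for single libraries to differ. The highest CPM of a gene was between 1.35 and 2.32 times its lowest, with a median ratio of 1.71, and stayed below 2 in 191 of the 200 genes and below 1.5 in 12. Among the other eligible genes the median ratio was 3.11, and 286 of 3344 stayed below 2. LOC_Os09g36100 had the widest range of the 200, from 28.7 to 66.6 CPM, followed by LOC_Os08g01610, from 25.1 to 54.8 CPM. The means of the 20 groups of treatment and segment differed by at most a median of 0.352 on the log2 scale per gene, against 0.834 for the other eligible genes.

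Together the 200 genes took up a share of the library that varied little, which follows from the rule and is not a finding. They held 1.26 ± 0.0650% of counts in D40 pools, 1.25 ± 0.0301% in W40 pools, 1.30 ± 0.0640% in D30 pools and 1.26 ± 0.0364% in W30 pools (SD, n = 4 each). The share was 1.27 ± 0.0568% in batch 2 and 1.27 ± 0.0462% in batch 1, over 9 and 7 pools. Along the blade it averaged 1.26, 1.27, 1.26, 1.27 and 1.29% in segments 2 to 6. The lowest single library gave 1.13% and the highest 1.41%.

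What variation remained was set against the labelled factors. Each factor was taken singly, and its share of a gene's sum of squares over the 80 libraries was computed on log2 CPM. Temperature accounted for a median of 6.75% in the 200 genes against 15.1% in the other eligible genes, and batch for 4.43% against 18.9%. Soil water accounted for 5.04% against 3.35%, and segment for 4.59% against 3.56%. The 200 genes lay below the others for temperature and batch, and slightly above them for soil water and segment. The rule used the same values, so contrasts of these shares with the other eligible genes are descriptions and not findings. Temperature was the factor with the largest share in 70 of the 200 genes, soil water in 47, batch in 45 and segment in 38. Among the other eligible genes batch led in 40.9% and temperature in 37.1%. Differences between pools as a whole accounted for a median of 65.2% of the sum of squares in the 200 genes, against 83.5% in the others.

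**Figure D3:**
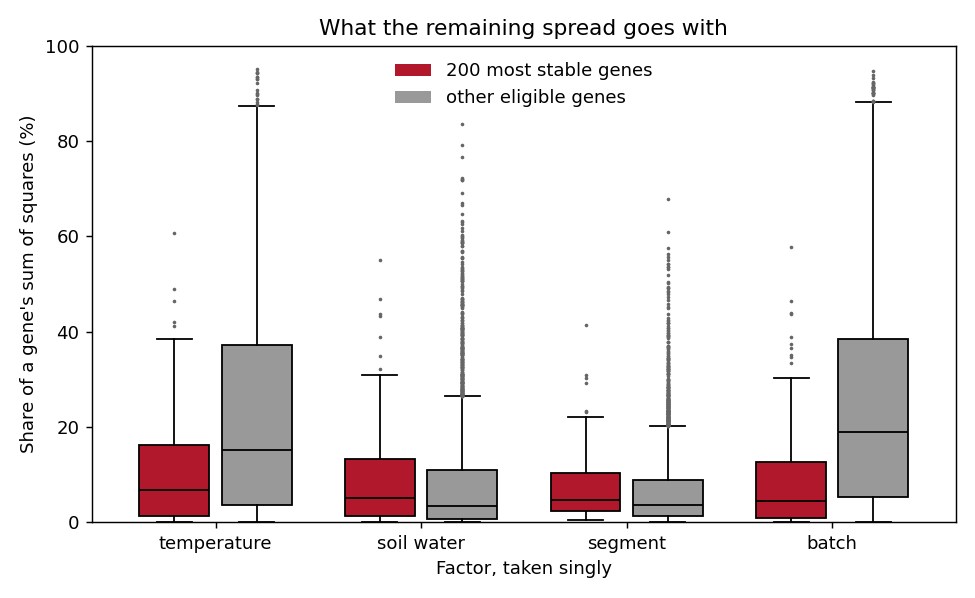
Share of a gene's sum of squares of log2 CPM over 80 libraries (vertical, %) that goes with temperature, soil water, segment or batch, each taken singly, in the 200 most stable genes (red) and the 3344 other eligible genes (grey). Lines in the boxes are medians, boxes span the quartiles, whiskers reach 1.5 times the box, and the red medians for temperature and batch, 6.75% and 4.43%, lie below the grey ones.

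For each factor the gene with the largest share shows how far a stable gene can still follow it. LOC_Os11g34860 followed temperature, which accounted for 60.7% of its spread. It had 24.2, 25.4, 25.8 and 26.3 CPM in D40 pools and 23.2, 24.8, 24.9 and 24.2 CPM in W40 pools, against 29.1, 28.3, 29.1 and 30.9 CPM in D30 pools and 27.1, 28.3, 30.5 and 30.6 CPM in W30 pools. The 8 heated pools all lie below the 8 unheated ones. LOC_Os08g38620 followed soil water, which accounted for 55.1%, with 65.2, 66.1, 62.9 and 61.2 CPM in D40 pools against 54.1, 50.6, 52.1 and 49.0 CPM in W40 pools. At 30 °C it had 65.0, 63.2, 60.4 and 65.8 CPM in D30 pools against 57.4, 63.7, 52.9 and 50.3 CPM in W30 pools. The drought pools are all higher at 40 °C, and at 30 °C the groups overlap through 1 W30 pool.

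Batch accounted for 57.8% of the spread of LOC_Os01g15110. Its 9 pools of batch 2 ran from 64.8 through a median of 69.4 to 77.8 CPM, and its 7 pools of batch 1 from 54.8 through 59.3 to 62.8 CPM, with no overlap. Segment accounted for 41.4% of the spread of LOC_Os09g39390, one of the most highly expressed of the 200. It averaged 410.1 ± 39.5 CPM in segment 2, 441.5 ± 26.0 in segment 3, 465.4 ± 42.5 in segment 4, 487.4 ± 43.3 in segment 5 and 497.1 ± 40.1 in segment 6 (SD, n = 16 libraries each). The level is higher toward the tip in the means, while single libraries of neighbouring segments overlap.

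Whether the 200 genes are level under heat shock depended on the scaling. With edgeR's quasi-likelihood test on the 16 pool sums, TMM scaling and Benjamini-Hochberg adjustment over all 25103 genes tested, 67 of the 200 genes passed an adjusted p of 0.05 in W40 against W30, all of them higher in W40, where 35.1% of all genes passed, 16.3% higher and 18.7% lower. With library totals in place of TMM factors 5 passed, of which 2 were higher and 3 lower in W40. Of all genes, 9.71% were then higher and 25.8% lower. In D40 against D30 98 passed, all higher in D40, where 34.4% of all genes passed, 16.6% higher and 17.8% lower. With library totals 2 passed, both lower in D40, where 8.8% of all genes were higher and 28.5% lower. These libraries chose the 200 genes, so nothing is read from the counts against the share of all genes. The median log2 change of the 200 was 0.21 for W40 minus W30 and 0.25 for D40 minus D30 with TMM, and 0.01 and -0.03 with library totals.

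The median over all genes tested moved in the same way with the scaling. For W40 minus W30 it was -0.08 with TMM and -0.28 with library totals, and for D40 minus D30 it was -0.05 and -0.32. A scaling shifts all genes alike, so the gap between the 200 genes and the median gene is nearly the same under both. The rule picked genes with an even share of the library, which holds the 200 genes near 0 with library totals. Why the median gene lay below 0 was not tested. The TMM factors themselves differed with temperature. Their mean log2 value over 4 pools was -0.13 in D40, -0.14 in W40, 0.15 in D30 and 0.12 in W30. Across pools they ran from -0.38 to 0.14 in D40 and from -0.26 to -0.01 in W40, against 0.05 to 0.21 in D30 and 0.04 to 0.19 in W30.

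**Figure D4:**
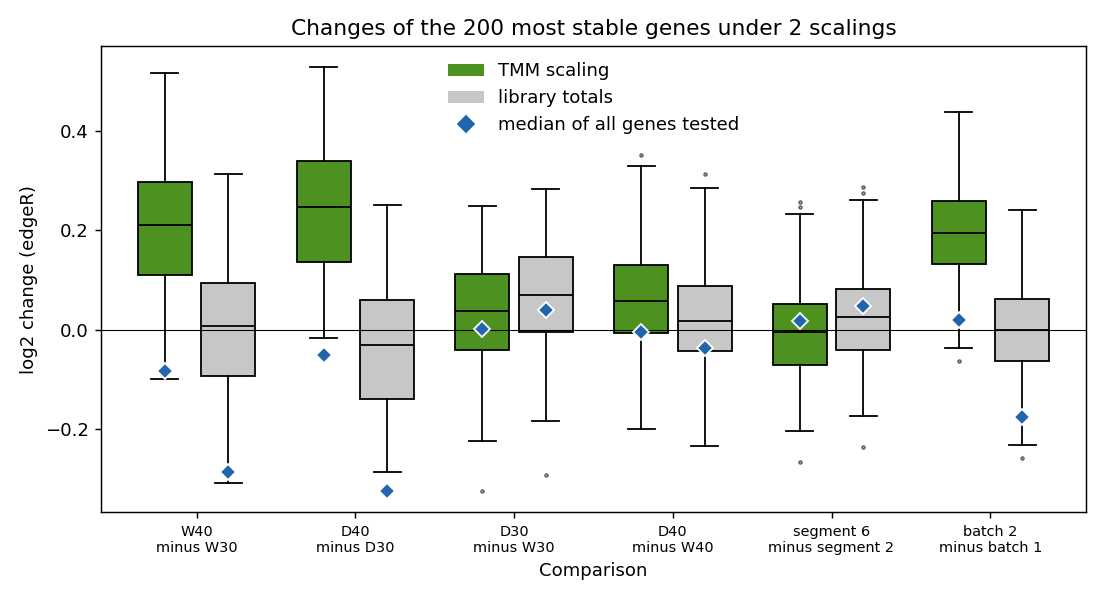
Log2 changes from edgeR (vertical) of the 200 most stable genes in 6 comparisons (horizontal), under TMM scaling (green) and library totals (grey), with boxes for the quartiles, whiskers to 1.5 times the box and blue diamonds for the median of all genes tested. In both heat comparisons and between batches the green boxes lie above 0 and the grey boxes around 0, and the diamonds lie below both.

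LOC_Os10g41240 and LOC_Os04g24180 had the largest TMM-scaled differences between W40 and W30. LOC_Os10g41240 had 51.9, 65.8, 65.3 and 61.3 CPM in W40 pools against 52.0, 50.9, 47.8 and 45.8 CPM in W30 pools, so that 3 of 4 heated pools lie above all unheated ones. Its log2 change was 0.52 (SE 0.10, edgeR adjusted p = 0.00196) with TMM and 0.31 (adjusted p = 0.0246) with library totals. LOC_Os04g24180 had 56.2, 49.0, 52.1 and 50.4 CPM in W40 pools against 47.9, 46.6, 42.7 and 39.8 CPM in W30 pools, with no overlap, and changes of 0.49 (SE 0.08, edgeR adjusted p = 0.000669) and 0.29 (adjusted p = 0.0200). Both genes passed under either scaling, and both were higher in W40.

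At the other end of that comparison stood LOC_Os03g61640 and LOC_Os11g34860. LOC_Os03g61640 had 32.0, 31.7, 27.99 and 29.6 CPM in W40 pools against 33.0, 37.5, 37.5 and 41.0 CPM in W30 pools. The heated pools are all lower in CPM, yet the edgeR log2 change was -0.10 (adjusted p = 0.419) with TMM and -0.31 (adjusted p = 0.0339) with library totals. For LOC_Os11g34860, whose pools are given above with the temperature shares, it was -0.08 (adjusted p = 0.508) with TMM and -0.28 (adjusted p = 0.0117) with library totals. The 2 genes passed only with library totals, as did LOC_Os11g36430 at -0.23, named after its value was seen.

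In the drought leaves LOC_Os02g15550 had 144.4, 157.2, 132.9 and 122.4 CPM in D40 pools against 109.2, 110.5, 119.7 and 126.8 CPM in D30 pools, and the groups overlap. Its log2 change was 0.53 (SE 0.09, edgeR adjusted p = 0.000572) with TMM and 0.25 (adjusted p = 0.0739) with library totals. LOC_Os01g41640 had 47.9, 51.4, 50.04 and 54.0 CPM in D40 pools against 42.9, 42.3, 42.3 and 45.7 CPM in D30 pools, without overlap, and changes of 0.51 (SE 0.10, edgeR adjusted p = 0.00232) and 0.23 (adjusted p = 0.0712). These 2 genes passed with TMM only. LOC_Os05g08600 had 34.8, 37.4, 38.7 and 34.7 CPM in D40 pools against 43.1, 42.6, 45.0 and 47.0 CPM in D30 pools, and here the log2 change was -0.02 (adjusted p = 0.906) with TMM and -0.29 (adjusted p = 0.0354) with library totals. LOC_Os07g37610, the other gene at this end, changed by 0.02 (adjusted p = 0.869) with TMM and by -0.25 (adjusted p = 0.0756) with library totals.

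The series title asks about heat sensitivity under drought, and the difference between the heat effects was tested in the same fit. Of the 200 genes 0 passed in edgeR with TMM, and 4 had an unadjusted p under 0.05. DESeq2 also passed 0, with 7 at an unadjusted p under 0.05. Over all 25103 genes edgeR called 0%, so the fit gave no calls against which these genes could be read. In batch 2 alone 5 of the 200 genes passed, with 32 at an unadjusted p under 0.05, where 16.8% of all genes passed, and 3 of the 21 reference loci described below did. In batch 1 alone 0 of the 200 passed, with 1 at an unadjusted p under 0.05, where 0.486% of all genes passed.

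Within batches the counts under heat diverged. In batch 2 alone 149 of the 200 genes passed in W40 against W30 and 167 in D40 against D30, and in batch 1 alone 5 and 10 passed, with TMM in each case. Of all genes tested, 52.9% and 51.3% passed in these comparisons in batch 2 alone, and 13.1% and 21.3% in batch 1 alone. The single W40 pool of batch 1 was taken to vary as the other groups did. Counts also moved when single pools were left out, where the share of all genes that passed was not counted. The count of 67 for W40 against W30 was 38 without W40 replicate 2, 39 without W40 replicate 4, 39 without W30 replicate 3 and 32 without W30 replicate 4. The count of 98 for D40 against D30 was 56 without D40 replicate 3, 63 without D40 replicate 4, 51 without D30 replicate 3 and 52 without D30 replicate 4.

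The soil water groups also took part in choosing the 200 genes, so the number of calls between them is a description. In D30 against W30 1 gene passed in edgeR with TMM, where 10.3% of all genes passed, 5.27% higher and 5.01% lower, and the median log2 change was 0.04 with TMM and 0.07 with library totals. The gene was LOC_Os09g36100, with 36.8, 35.5, 38.6 and 36.7 CPM in D30 pools against 41.0, 47.1, 47.5 and 45.0 CPM in W30 pools. All D30 pools are lower, by a log2 change of -0.32 (SE 0.09, adjusted p = 0.0408) with TMM and -0.29 (adjusted p = 0.0666) with library totals. With library totals 0 of the 200 passed in edgeR and 13 had an unadjusted p under 0.05, where 9.4% of all genes passed. DESeq2 passed 2. The 1 call was also lost without any of the 4 D30 pools, or without W30 replicate 2, 3 or 4.

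LOC_Os09g32800 followed at -0.22 (edgeR adjusted p = 0.164). The most positive differences belonged to LOC_Os02g57710, at 0.25 (adjusted p = 0.160), and LOC_Os01g17260, at 0.22 (adjusted p = 0.119). LOC_Os02g57710 had 93.8, 94.6, 92.3 and 99.1 CPM in D30 pools against 74.0, 89.9, 76.2 and 72.1 CPM in W30 pools, and LOC_Os01g17260 had 31.6, 32.7, 33.7 and 36.0 CPM in D30 pools against 25.8, 28.2, 30.6 and 28.01 CPM in W30 pools. For both genes every drought pool is higher, although neither passed the adjusted threshold.

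At 40 °C 5 of the 200 genes passed in D40 against W40, all higher in D40. Of all genes 14.1% passed, 8.37% higher and 5.76% lower. With library totals 2 of the 5 passed, where 10.8% of all genes did. The 5 were LOC_Os11g14300 at a log2 change of 0.35, LOC_Os01g34330 at 0.33, LOC_Os08g38620 at 0.33, LOC_Os03g57854 at 0.28 and LOC_Os05g02260 at 0.28, the last 2 named after their values were seen. LOC_Os11g14300 had 54.2, 55.5, 52.4 and 50.8 CPM in D40 pools against 42.5, 45.4, 44.0 and 39.0 CPM in W40 pools, without overlap (SE 0.10, edgeR adjusted p = 0.0305 with TMM and 0.0431 with library totals). LOC_Os01g34330 had 30.3, 34.9, 37.1 and 36.7 CPM in D40 pools against 26.4, 28.1, 31.1 and 30.7 CPM in W40 pools, which overlap (adjusted p = 0.0457 with TMM and 0.0649 with library totals). LOC_Os08g38620 passed under both scalings, with an adjusted p of 0.0340 and 0.0491. The comparison shares its D40 pools with the heat comparison in drought leaves.

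The lowest differences for D40 against W40 were -0.20 for LOC_Os04g52400 (edgeR adjusted p = 0.0858) and -0.19 for LOC_Os10g41240 (adjusted p = 0.229). LOC_Os04g52400 had 37.0, 37.3, 33.9 and 29.8 CPM in D40 pools against 40.2, 39.3, 40.8 and 41.8 CPM in W40 pools, and each drought pool is lower. The count of 5 passing genes depended on the pools. It was 0 without D40 replicate 3, D40 replicate 4, W40 replicate 3 or W40 replicate 4, 1 without W40 replicate 2 and 11 without W40 replicate 1. Leaving out a 30 °C pool, which enters through the shared estimate of spread and the batch term, gave 2 without D30 replicate 1 or 4, 3 without D30 replicate 2 or 3, 8 without W30 replicate 2, and 2 without W30 replicate 3 or 4. Within batches 44 of the 200 passed in batch 2 alone, where 48.1% of all genes did. In batch 1 alone 0 passed, with 14 at an unadjusted p under 0.05, and over all genes 1 did. For D30 against W30 9 passed in batch 2 alone, where 33.2% of all genes did, and 0 in batch 1 alone, with 13 at an unadjusted p under 0.05, where 6.83% of all genes did.

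Along the blade small differences were called, since segments of the same pool could be compared directly. Between segment 6 and segment 2, with the pool as a block, 79 of the 200 genes passed in edgeR with TMM, where 52.6% of the 23888 genes tested passed, 27.6% higher and 25.0% lower. Of the 79, 33 were higher and 46 lower in segment 6. With library totals 72 passed, 50 of them higher and 22 lower, where 30.3% of all genes were higher and 21.1% lower. The balance of directions in the 200 genes thus turned with the scaling. Within batches the directions differed. In batch 2 alone 41 genes were higher and 14 lower in segment 6, and in batch 1 alone 12 were higher and 56 lower. Of all genes 23.0% were higher and 20.2% lower in batch 2 alone, and 21.1% and 22.1% in batch 1 alone. The difference between the batches was not tested. The sizes were small and ran from -0.26 to 0.26 on the log2 scale over the 200 genes with TMM, with a median of -0.00 with TMM and 0.03 with library totals.

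LOC_Os11g04500 averaged 49.4 ± 5.28 CPM in segment 2, 52.6 ± 6.00 in segment 3, 55.7 ± 5.97 in segment 4, 56.4 ± 5.69 in segment 5 and 60.2 ± 6.39 in segment 6 (SD, n = 16 libraries each). Its log2 change from segment 2 to segment 6 was 0.26 (SE 0.04, edgeR adjusted p = 2.59e-07). LOC_Os09g39390, described above, came next at 0.25 (adjusted p = 1.55e-06). In the opposite direction LOC_Os05g06350 averaged 103.1 ± 14.1, 100.2 ± 10.7, 94.1 ± 8.87, 90.2 ± 10.1 and 87.5 ± 10.1 CPM in segments 2 to 6, a change of -0.26 (SE 0.03, edgeR adjusted p = 2.41e-12). LOC_Os05g48500 averaged 54.5 ± 6.15 CPM in segment 2 and 48.4 ± 5.22 CPM in segment 6, a change of -0.20 (adjusted p = 1.66e-08). All 4 genes passed with library totals too, in the same directions. The spread over libraries is wider than the step between neighbouring segments in each of them, and the small p-values come from the comparison within pools.

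Between batches the scaling again set the picture. In batch 2 against batch 1, with treatment in the model, 119 of the 200 genes passed in edgeR with TMM, all higher in batch 2, where 50.5% of all genes passed, 26.3% higher and 24.1% lower. With library totals 14 passed, 9 higher and 5 lower in batch 2, where 17.2% of all genes were higher and 32.7% lower. The median log2 change was 0.20 with TMM and -0.00 with library totals, and over all genes tested it was 0.02 and -0.17. The mean log2 TMM factor was -0.10 over the 9 pools of batch 2 and 0.12 over the 7 pools of batch 1. LOC_Os05g13440 ran from 33.7 to 45.3 CPM with a median of 40.6 in batch 2 pools and from 31.7 to 39.1 with a median of 33.0 in batch 1 pools, and LOC_Os03g16110 from 77.4 to 98.0 with a median of 89.9 and from 71.7 to 82.3 with a median of 75.7 CPM. Both overlap between batches, both changed by 0.44 with TMM (adjusted p = 4.62e-05 and 6.25e-05) and by 0.24 with library totals (adjusted p = 0.00903 and 0.00605). LOC_Os05g04520 had a median of 54.8 CPM in batch 2 pools and 64.0 CPM in batch 1 pools, with a change of -0.06 (adjusted p = 0.455) with TMM and -0.26 (adjusted p = 0.00978) with library totals. LOC_Os01g48270 changed by -0.04 (adjusted p = 0.676) and by -0.23 (adjusted p = 0.0198). The count of 119 was 78 without D40 replicate 4 and 74 without W40 replicate 1.

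Counted over the 6 comparisons with TMM, 20 of the 200 genes passed in none, 59 in 1, 68 in 2, 38 in 3 and 15 in 4. The same count was not made over all genes, so nothing is read from these numbers. LOC_Os02g39890, first by the rule, passed in 3 of them, with log2 changes of 0.28 for W40 minus W30 (edgeR adjusted p = 0.0146), 0.37 for D40 minus D30 (adjusted p = 0.00271) and 0.16 for batch 2 minus batch 1 (adjusted p = 0.0300). With library totals the same 3 changes were 0.07, 0.09 and -0.04, with adjusted p of 0.523, 0.390 and 0.636. The gene with the most even share of the library was thus among those that passed once TMM factors were applied.

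The stability ranking itself moved with the scaling. When CPM was computed with TMM-scaled library sizes, 49 of the 200 genes were among the 200 lowest, and with DESeq2's size factors 44 were, all of them among the 49. With TMM-scaled sizes the 200 genes had a median SD of 0.213, against 0.359 over the 3544 genes eligible under library totals. Of the 190 that stayed eligible under TMM, 0 lay in the more variable part of the ranking, beyond its middle, and the median rank was 380 of 3611. LOC_Os02g39890 moved to rank 304 and LOC_Os01g71770 to rank 78. The lowest SDs under TMM were those of LOC_Os07g26610, at 0.106, and LOC_Os01g37760, at 0.108, which stood at ranks 100 and 58 under library totals. Both of these belong to the 20 genes that passed in no comparison. Of the first 10 under TMM, 3 were among the 200.

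The choice of libraries moved the list too. Applied to subsets of the libraries, the rule kept 109 of the 200 in batch 2 alone and 55 in batch 1 alone, 90 in the 40 °C libraries and 58 in the 30 °C libraries, and 112 in the drought and 121 in the well-watered libraries. With the authors' deposited batch-corrected counts it kept 127. In all of batch 2, batch 1, 40 °C and 30 °C it kept 11 genes, and 29 were kept in none of these 4 subsets. Adding the requirement of TMM, DESeq2 size factors and batch-corrected counts left 3 genes, LOC_Os01g71770, LOC_Os11g14430 and LOC_Os02g04040, the last 2 named after their values were seen. LOC_Os11g14430 had a median of 48.9 CPM and ran from 39.6 to 63.5, and LOC_Os02g04040 had a median of 62.8 CPM and ran from 49.8 to 77.0.

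Eligible genes were also ranked by SD in one batch and measured in the other. The ranking did not use the batch measured, but the floor of 20 CPM did, as it covered all 80 libraries. The 200 genes of lowest SD within batch 1 had a median SD of 0.119 there and of 0.231 in batch 2, where all eligible genes had 0.338, and 165 of them had an SD below the middle of the batch 2 ranking. The 200 chosen within batch 2 had a median SD of 0.149 there and of 0.172 in batch 1, against 0.246 for all eligible genes, and 185 lay below the middle. The 2 lists shared 36 genes, which is 18.0% of each list, and any 200 genes are 5.64% of the eligible ones. Low spread in one batch thus went with lower spread in the other, while the exact membership differed for most genes. The batches share the same 4 treatments and 5 segments, so this is a description of 2 sets of libraries and not of other conditions.

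Loci commonly used as qPCR references were set against the 200 genes. The 22 locus IDs were entered by hand from general knowledge, and no table used here checks the assignment. The table held 21 of them, without LOC_Os03g08060, and 17 were eligible. LOC_Os03g50885, LOC_Os07g38730 and LOC_Os03g56810 fell below 20 CPM in 1 library each, and LOC_Os01g59150 did so in 77. Among the 200 most stable genes were 3 of them, LOC_Os06g48970 at rank 20, LOC_Os02g42314 at rank 39 and LOC_Os11g21990 at rank 106. They are 17.6% of the 17 eligible loci, whereas the 200 are 5.64% of all eligible genes. The median rank of the 17 was 2376 of 3544, their median SD was 0.468, and 10 of the 17 stood beyond the middle of the ranking.

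**Figure D5:**
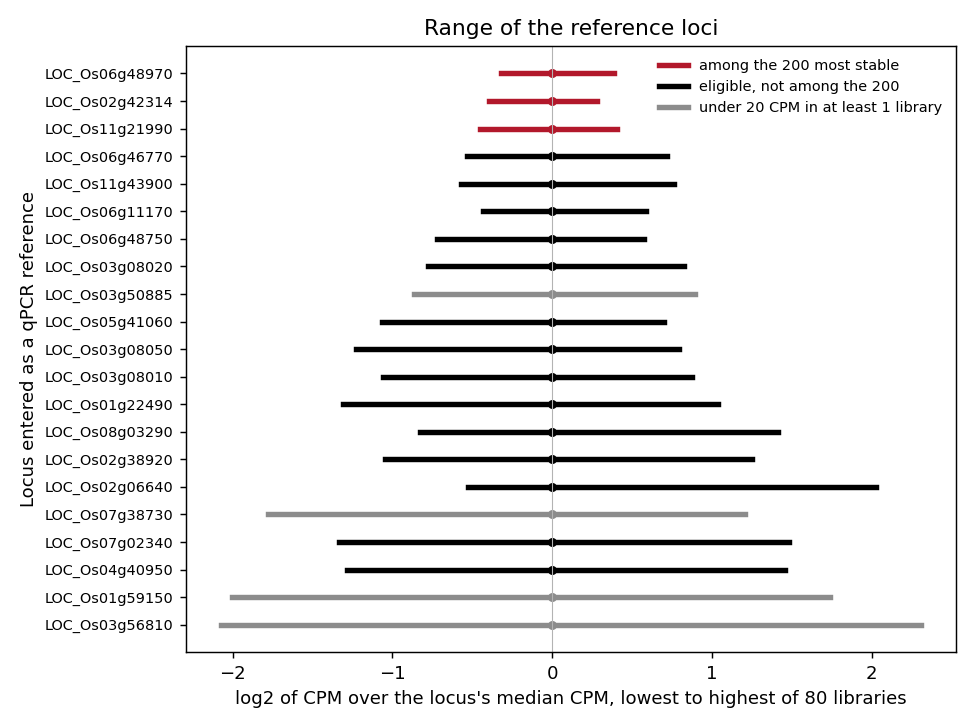
Range of log2 CPM relative to the median of the locus (horizontal) from the lowest to the highest of 80 libraries for 21 loci entered as qPCR references (vertical), by increasing SD from the top, with those among the 200 most stable in red, other eligible loci in black and loci under 20 CPM in at least 1 library in grey. The 3 red bars are the shortest, and LOC_Os03g56810 at the foot spans a 20.8-fold range.

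The 3 reference loci within the list varied little in CPM. LOC_Os06g48970 averaged 27.97 ± 1.73 CPM in D40, 27.3 ± 1.44 in W40, 32.1 ± 1.34 in D30 and 29.4 ± 1.66 in W30 (SD, n = 4 pools each). LOC_Os02g42314 averaged 27.4 ± 1.41, 29.7 ± 1.43, 27.3 ± 3.42 and 27.98 ± 2.98 CPM in the same order, and LOC_Os11g21990 averaged 125.6 ± 18.3, 128.6 ± 6.89, 124.1 ± 11.6 and 133.6 ± 16.7 CPM. In the 5 whole-leaf comparisons LOC_Os06g48970 passed in none under TMM or library totals, and between segment 6 and segment 2 it passed under both, at 0.09 (edgeR adjusted p = 0.0106) and 0.13 (adjusted p = 0.000825). LOC_Os02g42314 passed with TMM in W40 against W30 at 0.26 (edgeR adjusted p = 0.0247), in D40 against D30 at 0.29 (adjusted p = 0.0128) and between batches at 0.34 (adjusted p = 0.000283), and with library totals in none of the 3. LOC_Os11g21990 passed with TMM in D40 against D30 at 0.29 (adjusted p = 0.0305), which was 0.01 (adjusted p = 0.972) with library totals. It also passed between segment 6 and segment 2 with TMM, at -0.09 (adjusted p = 0.00316), which was -0.06 (adjusted p = 0.124) with library totals. Under TMM LOC_Os06g48970 held rank 35 and LOC_Os11g21990 rank 131, and LOC_Os02g42314 was below 20 scaled CPM in at least 1 library.

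Counts of reference loci that passed are given over all 21, since leaving out the 3 within the list would select by spread. In W40 against W30 10 of the 21 passed in edgeR with TMM, all higher in W40, where 16.3% of all genes were higher and 18.7% lower. With library totals 7 passed, 6 of them higher, where 9.71% of all genes were higher and 25.8% lower. In D40 against D30 10 passed, all higher in D40, where 16.6% of all genes were higher and 17.8% lower. With library totals 7 passed, 6 of them higher, where 8.8% of all genes were higher and 28.5% lower. The largest change was that of LOC_Os03g56810, with 148.9, 154.5, 350.7 and 266.6 CPM in D40 pools and 130.1, 283.7, 249.9 and 290.7 CPM in W40 pools, against 35.7, 35.2, 42.9 and 45.2 CPM in D30 pools and 27.9, 33.6, 23.4 and 25.8 CPM in W30 pools. Heated and unheated pools do not overlap, and the log2 change was 3.099 (SE 0.30, edgeR adjusted p = 9.30e-06) for W40 minus W30 and 2.77 (SE 0.28, adjusted p = 1.80e-05) for D40 minus D30. With library totals the changes were 2.90 and 2.48.

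Within batches, with TMM, 15 of the 21 passed in W40 against W30 in batch 2 alone and 11 in batch 1 alone, and over both batches 6 did without W40 replicate 4. In D40 against D30 19 passed in batch 2 alone and 3 in batch 1 alone. These counts hold loci that were higher in the heated leaves and 0 that were lower.

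LOC_Os04g40950 changed by 1.87 (edgeR adjusted p = 1.42e-05) in W40 against W30 and by 1.71 (adjusted p = 2.66e-05) in D40 against D30, with pool means of 253.5 ± 71.4 CPM in D40, 258.0 ± 14.0 in W40, 93.8 ± 15.1 in D30 and 77.6 ± 9.38 in W30 (SD, n = 4 each). LOC_Os07g02340 changed by 1.47 (adjusted p = 2.40e-05) and 1.38 (adjusted p = 3.60e-05) in the same comparisons. It was the 1 reference locus that passed in D30 against W30 with TMM, at -0.51 (adjusted p = 0.0489), and it also passed in D40 against W40, at -0.59 (adjusted p = 0.0244). Its pools had 169.6, 159.0, 235.6 and 179.1 CPM in D40 and 190.5, 381.0, 346.3 and 406.9 CPM in W40, against 67.2, 65.8, 112.8 and 108.2 CPM in D30 and 70.8, 118.6, 147.9 and 152.5 CPM in W30. Over both batches it was the 1 of the 21 loci that passed for both temperature and soil water, under either scaling. In batch 2 alone 13 did, where 52.9% and 51.3% of all genes passed in the heat comparisons. In the soil water comparisons 33.2% and 48.1% of all genes passed there. The share of all genes that passed for both was not counted, so nothing is read from the 13.

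The D30 against W30 call on LOC_Os07g02340 was lost with library totals (edgeR adjusted p = 0.0826). Of all 21 loci 1 passed in that comparison, 11 in batch 2 alone, and 0 in batch 1 alone, with 1 at an unadjusted p under 0.05. The count was also 0 without any single one of the 4 D30 pools, D40 replicate 2, W40 replicates 2 to 4 or W30 replicates 3 and 4, and 3 without W30 replicate 1. Of all genes 10.3% passed over both batches with TMM, 9.4% with library totals and 33.2% in batch 2 alone. With library totals LOC_Os07g38730 was the 1 locus that passed, at 1.05 (adjusted p = 0.0443), against 0.99 (adjusted p = 0.0643) with TMM. It had 74.96, 74.4, 89.2 and 109.4 CPM in D30 pools against 63.7, 67.5, 25.4 and 25.5 CPM in W30 pools, so every drought pool was higher. LOC_Os07g38730 passed in D40 against W40 as well with TMM, at 1.03 (adjusted p = 0.0428), and not with library totals (adjusted p = 0.0521). For D40 against W40 the 2 calls among the 21 loci became 12 in batch 2 alone and 0 in batch 1 alone, with 9 at an unadjusted p under 0.05. They became 0 without D40 replicate 3 or 4 or W40 replicate 2 or 4. They became 1 without W40 replicate 3 or D30 replicates 1 to 3, and 4 without W30 replicate 1. Of all genes 14.1% passed in this comparison over both batches with TMM, and 48.1% in batch 2 alone.

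LOC_Os06g11170 went the other way under heat, with 31.1, 30.0, 28.8 and 28.1 CPM in D40 pools and 32.6, 30.8, 32.0 and 29.5 CPM in W40 pools, against 39.2, 40.1, 43.4 and 43.7 CPM in D30 pools and 35.1, 43.7, 44.4 and 42.7 CPM in W30 pools. All heated pools are lower in CPM, yet with TMM its log2 changes of -0.21 for W40 minus W30 (adjusted p = 0.0846) and -0.22 for D40 minus D30 (adjusted p = 0.0732) did not pass, whereas with library totals -0.42 (adjusted p = 0.00493) and -0.49 (adjusted p = 0.00150) did.

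Along the blade 14 of the 21 loci passed between segment 6 and segment 2 with TMM, 5 higher and 9 lower in segment 6, where 52.6% of all genes tested passed. With library totals 14 passed, 6 higher and 8 lower. Within batches the counts were 5 higher and 10 lower in batch 2 alone and 8 higher and 3 lower in batch 1 alone. LOC_Os01g59150 had the steepest difference, averaging 14.2 ± 4.65, 10.5 ± 4.42, 8.11 ± 4.37, 6.45 ± 3.48 and 4.75 ± 2.14 CPM in segments 2 to 6 (SD, n = 16 libraries each), a log2 change of -1.69 (SE 0.12, edgeR adjusted p = 1.11e-17). In the opposite direction LOC_Os01g22490 changed by 0.67 (adjusted p = 3.67e-11) and LOC_Os03g08010, LOC_Os03g08050 and LOC_Os03g08020 by 0.53, 0.47 and 0.38. Reads of near-identical copies of a family could be split between neighbouring loci such as the last 3, so their values are uncertain. Between batches 17 of the 21 passed with TMM and 12 with library totals, all higher in batch 2, where 26.3% of all genes were higher with TMM and 17.2% with library totals. LOC_Os05g41060 had pools of 257.8 to 319.2 CPM in batch 2 and of 122.8 to 168.5 CPM in batch 1, a log2 change of 1.08 (adjusted p = 3.44e-07) with TMM and 0.88 (adjusted p = 9.17e-07) with library totals.

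Of the 21 loci, 18 had a highest CPM at least 2 times their lowest and 10 at least 4 times. By contrast 9 of the 200 most stable genes reached a ratio of 2, although this contrast is part of how the 200 were chosen. LOC_Os02g06640 illustrates how a reference locus can be level in some treatments only. Its heated pools had 341.7, 455.9, 1461 and 1447 CPM in D40 and 405.8, 565.6, 794.7 and 730.1 CPM in W40, against 344.7, 352.7, 429.2 and 513.9 CPM in D30 and 359.7, 335.8, 333.0 and 344.1 CPM in W30. The W30 pools lie close together, and the D40 pools lie far apart, the 2 high ones being those of batch 2. The log2 change was 1.32 (SE 0.34, edgeR adjusted p = 0.00879) for D40 minus D30 and 0.78 (SE 0.34, adjusted p = 0.0908) for W40 minus W30. With library totals the changes were 1.01 (adjusted p = 0.0162) and 0.59 (adjusted p = 0.142).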

How the data were processed

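Per the submitters' processing notes, HISAT2 2.2.1, featureCounts 2.0.6 and Picard 3.1.0 were used; no source used here gives a genome build. Per the file headers, the deposited tables hold raw counts per gene, estimated counts after a batch correction, and FPKM after the same kind of correction, with a column for each library. How the correction was made is not stated. Even numbers made up 76.9% of raw counts between 1 and 20, as when both reads of a pair are counted. Library totals ran from 53398019 to 128636996 counts, and counting intervals cover counting error only.

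The 200 genes were picked from raw counts as CPM of the library total, with at least 20 CPM in every library and the lowest SD of log2 CPM. The members, the reference loci and the comparisons were chosen with earlier results of these data known. Tests used edgeR 4.0.16 in R 4.3.3, with filterByExpr (minimum count 10, minimum total 15), TMM factors and its quasi-likelihood F test, with p-values adjusted by Benjamini-Hochberg over all genes tested and a threshold of 0.05. The 5 segments of each pool were summed, and treatment and batch were fitted to 16 pools. Segment tests used all 80 libraries, with a block for each pool and terms for segment within treatment. Segments of a pool come from the same leaves, per the labels' protocols. Their deviations from the mean of their treatment and segment had a median correlation of 0.617, against -0.434 between pools of a treatment. Each mean covers 4 pools, which in itself lowers correlations between pools, so the contrast is partly built in. Each standard error is the size of the log2 change over the square root of its F. DESeq2 1.42.0 on the same raw counts, and batch-corrected counts rounded to whole numbers, served as alternatives. The procedure was tested on simulated counts.

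Genes were named by rule, as the 10 lowest SDs, 3 on each side of rank 200, the 5 highest and 3 lowest median CPM, the 2 most positive and 2 most negative changes of a comparison, the 2 smallest and 2 largest ratios of highest to lowest CPM, the largest share of each factor, and every reference locus. Nothing says that the pools came from separately grown batches of plants, so p-values measure the spread between these pools. Sequences were not used here.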

Additional observations from a re-analysis of the deposited data

Results flagged for a closer look

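The check for single pools that stand apart used 116 groups of 4 pools, covering only part of the genes named above. The pool farthest from the others was compared with the range of its group, which flags about 1 group in 20 by chance. Groups of the other named genes were not examined, and some of them also hold a pool far from the rest. An example is LOC_Os01g15110 in W40, with 60.1 CPM in replicate 1 against 73.5, 73.0 and 73.1 CPM. Among the 116 groups examined, 3 stood apart. LOC_Os08g33076 had 23.1 CPM in W30 replicate 1, below the other 3 W30 pools. LOC_Os09g36100 had 44.5 CPM in W40 replicate 1, above the other W40 pools at 38.4, 37.6 and 37.9. LOC_Os09g32800 had 46.2 CPM in W30 replicate 1, below the other W30 pools at 53.0, 53.2 and 52.1. W40 replicate 1 is the only W40 pool of batch 1, and W30 replicate 1 also belongs to batch 1. Their part in these values was not tested.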

How the results depend on the processing

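Of the 200 genes, the altered rule kept 49 with TMM-scaled library sizes, 44 with DESeq2 size factors, 127 with batch-corrected counts, 19 with batch-corrected FPKM of at least 20, 75 with a floor of 40 CPM, 109 in batch 2 only, 55 in batch 1 only, 90 at 40 °C, 58 at 30 °C, 112 under drought and 121 well-watered. It kept 141 to 159 with a floor of 10 CPM, a mean of 20 CPM, the median absolute deviation, the highest minus lowest value, batch means subtracted or pool sums, and 172 to 192 without 1 pool. The cause of these shifts was not tested.

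Counts of the 200 genes called are given in the order W40 minus W30, D40 minus D30, D30 minus W30 and D40 minus W40, where they were 67, 98, 1 and 5. Library totals gave 5, 2, 0 and 2, DESeq2 86, 116, 2 and 13, no filter on low counts 46, 56, 0 and 0, batch 2 only 149, 167, 9 and 44, batch 1 only 5, 10, 0 and 0, and batch-corrected counts 114, 134, 1 and 7. Without 1 pool they ran from 32 to 93, 51 to 114, 0 to 1 and 0 to 11. The 119 genes called between batches became 14 with library totals and 74 to 129 without 1 pool. The 79 called between segments stayed at 55 to 88 under the alternatives other than the block, and at 65 to 84 without 1 pool. Where edgeR gave 0, unadjusted p under 0.05 held for 3 (no filter, D30 minus W30), 17 (no filter, D40 minus W40), 13 and 14 (batch 1 only) and 13 genes (library totals). The share of all genes called was not counted with DESeq2, with no filter, with batch-corrected counts or without 1 pool. Nothing is therefore read from how the counts of the 200 genes moved in those settings.

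For the 21 reference loci, D40 minus D30 gave 10, then 19 in batch 2 only and 3 in batch 1 only. D30 minus W30 gave 1, then 2 with DESeq2, 0 with no filter (5 at an unadjusted p under 0.05), 11 in batch 2 only and 0 in batch 1 only. D40 minus W40 gave 2, then 4 with DESeq2, 1 with library totals, 12 in batch 2 only and 0 in batch 1 only. Without 1 pool the counts were 6 to 11 for W40 minus W30, 7 to 12, 0 to 3 and 0 to 4 for the others in this order, 13 to 15 between segments and 16 to 17 between batches. The share of all genes called was not counted with DESeq2, with no filter or without 1 pool. Nothing is therefore read from how the counts of reference loci moved there.

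Whether replicate numbers pair pools of different treatments could not be decided here. Deviations of same-numbered pools had a median correlation of -0.165 over 24 pairs, against 0.0617 for other numbers, and 0 pools matched their own number best. The deviations were taken after treatment and batch, which in itself lowers correlations within a batch. Most same-numbered pools share a batch, so nothing is read from this contrast. With the number as a replicate block, 18, 60, 0 and 0 of the 200 genes were called, and 0 between batches, with 2, 16 and 26 at an unadjusted p under 0.05 where the block gave 0. The reference loci called were 0 for D30 minus W30, 0 for D40 minus W40 and 0 between batches, with 2, 6 and 4 at an unadjusted p under 0.05. Of the replicate 2 pools only W40 replicate 2 lies in batch 2, and every other number lies in a single batch. With this block the batch term therefore rests on that pool alone, so the 0 calls between batches cannot be read. Without the pool block the segment comparison gave 33 of the 200 genes and 7 of the 21 loci. The share of all genes called was counted neither with the replicate block nor without the pool block. Nothing is therefore read from these counts against those of the main fit.

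Among the changes of named genes that passed over both batches with TMM, under an alternative, or both, signs turned for 7. In batch 1 only, the segment change was 0.36 for LOC_Os11g43900, 0.17 for LOC_Os06g48750, 0.049 for LOC_Os05g41060, 0.17 for LOC_Os02g38920 and 0.0020 for LOC_Os03g56810, each negative over both batches. In batch 2 only, LOC_Os02g38920 changed by 0.35 for D40 minus W40, against -0.08 over both batches. With library totals, LOC_Os02g39890 changed by -0.037 for batch 2 minus batch 1, against 0.16 with TMM. Changes that passed in neither fit also turned sign. The cause was not tested. The smallest count of any of the 200 genes in any library was 1202.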
